A study of Saccharomyces cerevisiae with 2 samples.

Results

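Nucleosomes with short footprints are described here, that is, the 10% of the called nucleosomes of yeast at which the reads of both strands began closest to each other. A nucleosome call was a local maximum of the read density on the 16 nuclear chromosomes, made from 2 MNase-seq libraries added together, and a call had to hold at least 100 reads. The footprint was the distance between the median position of the plus-strand 5′ ends within 90 bp to the left of the call and the median position of the minus-strand 5′ ends within 90 bp to its right, with at most 20 reads counted per position and strand. Of 49451 calls, 2639 held fewer than 100 reads, 123 had no 5′ end on one side, and 46689 had a footprint. The shortest 10% were 4687 calls (10.0%, by the rule), with a footprint of at most 70.5 bp. These are called the members below, and the remaining 42002 are called the other calls.

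Both libraries came from 1 condition and are named replicate 1 and replicate 2. Saccharomyces cerevisiae was grown in YPD, a rich medium, and fixed with 1% formaldehyde for 30 min. Its chromatin was digested with 3.5 units of micrococcal nuclease (MNase) at 37 °C for 20 min, DNA of about 147 bp was cut out of a gel, and 36 cycles were sequenced from a single end of each fragment. The sample labels name no strain and no mutation, and the study's supplement names the laboratory strain BY for these data. The labels leave unsaid whether the libraries came from separate cultures, so an SD over both may be technical. The depth was 21973866 reads in replicate 1 and 19288900 in replicate 2. No condition could be compared with another, and calls are not replicates of a condition, so no p-value is given. Values are set beside those of the other calls, with both libraries or all 16 chromosomes shown where the comparison allows.

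In a nucleosome, DNA is wrapped around an octamer of histones, and neighbouring nucleosomes are joined by linker DNA. MNase first cuts the linker and then nibbles inward from the ends of the protected DNA, and it can also cut inside the wrapped DNA, where the inward-facing and outward-facing sides of the helix differ in accessibility. A plus-strand read begins at the left end of its fragment and a minus-strand read at the right end. With reads from a single end, the length of a fragment is not seen directly, and the distance between the ends of the opposite strands at a call takes its place. Protected stretches shorter than a full nucleosome are known from nucleosomes cut at their edges or inside, from particles that lack part of the histones, and from other DNA-bound proteins, and these reads alone do not tell such stretches apart.

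The members had a median footprint of 65 bp (interquartile range 60 to 68 bp), against 89 bp (81.5 to 96.5 bp) at the other calls. The members were chosen by these values, which are therefore a description. The shortest footprint was 38 bp. In replicate 1 alone the median was 67 bp at the members and 92 bp at the other calls, and in replicate 2 alone it was 63 and 85 bp. That is 65 ± 2.83 bp (SD, n = 2 libraries) for the members and 88.5 ± 4.95 bp for the other calls, and the ratio of members to other calls was 0.728 in replicate 1 and 0.741 in replicate 2. Replicate 1 gave the longer footprint in 61.7% of the members and in 71.2% of the other calls. Ends spread evenly over the windows would give a footprint of 90 bp, so the footprint measures where the ends lay within 90 bp of a call and is not a fragment length. No gap in the distribution set the members apart. At the limit of 70.5 bp lay 84 calls, and at the next value, 71 bp, lay 543.

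**Figure D1:**
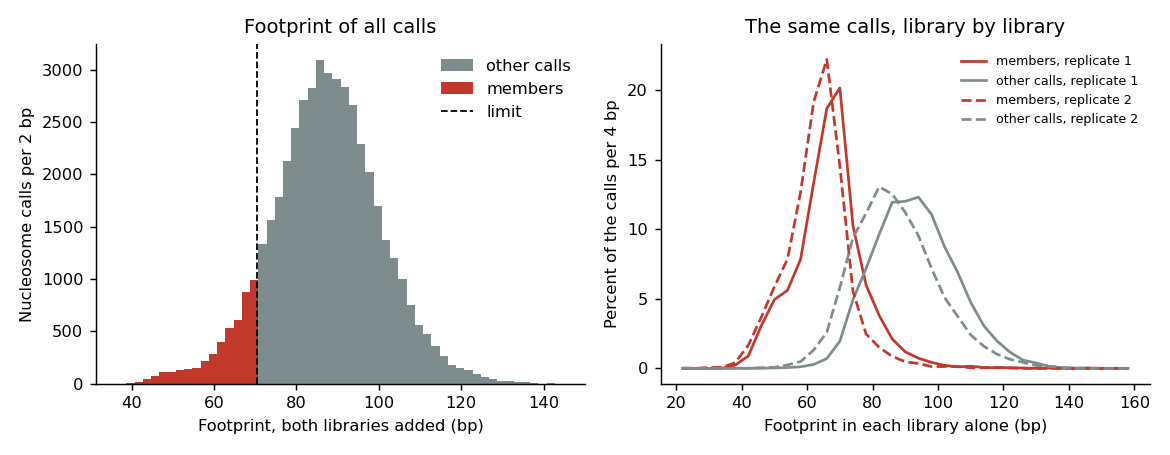
Footprints of the 46689 calls. On the left, the number of calls per 2 bp of footprint from both libraries added, with the members in red, the other calls in grey and the limit of 70.5 bp dashed; on the right, the percentage of calls per 4 bp of footprint in replicate 1 (solid) and replicate 2 (dashed) alone. The members form the lower tail of a single broad hump, and replicate 1 lies to the right of replicate 2 in both sets.

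The strength of the choice could be checked across the libraries, since a footprint measured in one library does not enter that of the other, although the calls themselves were made from both. The shortest 10% in replicate 1 alone, with a limit of 71 bp, were 4725 calls. Of these, 2352 were also in the shortest 10% of replicate 2, with a limit of 66 bp. This is 49.8% (exact binomial 95% confidence interval, 48.3% to 51.2%, for counting error only), against a background of 10.1%. The background is the 4703 calls chosen in replicate 2 over the 46560 calls with a footprint in both libraries. Of the calls chosen in replicates 1 and 2, 4683 and 4668 had a footprint in the other library. The few without one count as not recurring. In the other direction, 50.0% (48.6% to 51.4%) of the 4703 calls chosen in replicate 2 were also in the shortest 10% of replicate 1, against 10.1%. Calls chosen in replicate 1 had a median footprint of 66 bp in replicate 2 (interquartile range 59.5 to 74 bp), against 85 bp (77 to 94 bp) for calls not chosen. Calls chosen in replicate 2 had 71 bp (63 to 82 bp) in replicate 1, against 92 bp (83 to 101 bp). The share that recurred was far above the background of 10.1%, and close to as many calls did not recur. Of the members, 48.3% were in the shortest 10% of both libraries taken alone, and 8.45% were in that of neither. Over all calls these shares were 5.04% and 84.8%. The members were chosen from the same ends, so this difference follows in large part from the rule.

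The members were not of 1 kind. An edge is the distance from the call to the median 5′ end on that side, and the median edge was 33 bp on the left and 33 bp on the right at the members, against 44 and 44 bp at the other calls. Within a call, the nearer edge lay at a median of 26 bp and the farther edge at 39 bp at the members, against 42 and 46 bp. The members were then divided in a way chosen after their values had been seen. Members within 150 bp of a read-free interval, that is, at least 200 bp in which no read of either library began, or of the outermost base with a read on a chromosome, were taken first, and there were 315 of them (6.72%). Among the rest, 794 (16.9%) had their nearer edge within less than 20 bp of the call and are called close-edge members. The remaining 3578 (76.3%), with both edges at 20 bp or more, are called main-class members. The name does not mean that both their edges were short. At 82.3% of them, 1 edge was among the shortest 10% of all edges and the other was not, and both were at 16.9%. Their nearer edge lay at a median of 28 bp and their farther edge at 38 bp. The division depended on the setting. The share of members with the nearer edge under 20 bp, calls beside read-free intervals included, was 22.6%, but 38.5% with a smoothing SD of 10 bp, 14.7% with at most 1 read per position and strand, 14.2% with at least 20 reads on each side, 8.11% with a minimum of 500 reads, and 46.9% and 11.3% among the shortest 5% and 20% of calls. Moving reads by 73 bp gave 77.7%. The share beside a read-free interval was 3.07% with intervals of 500 bp or more, 3.60% with at least 20 reads on each side, 3.17% with a minimum of 500 reads, and 13.0% and 3.66% among the shortest 5% and 20%. It was 1.34% after moving reads by 73 bp. The median footprint was 67 bp at the main-class members, 56 bp at the close-edge members and 49 bp beside read-free intervals.

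The kinds differed in footprint, which is in large part fixed by arithmetic, since the footprint is the sum of the edges and the kinds were cut on the nearer one. Of the 349 members with a footprint of at most 50 bp, 13 were main-class members, 160 were close-edge members and 176 lay beside a read-free interval. From above 50 to 60 bp, these numbers were 334, 466 and 94 of 894. From above 60 to 65 bp they were 1054, 152 and 20 of 1226, and above 65 bp they were 2177, 16 and 25 of 2218. In the shortest 10% of both libraries taken alone were 39.2% of the main-class members, 75.4% of the close-edge members and 83.2% of those beside read-free intervals. Of all calls, 5.04% were. The left edge was the nearer one in 51.1% of the close-edge members.

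Read-free intervals thus lay beside many of the shortest members. The nuclear chromosomes held 510 such intervals, 576430 bp in all. Of the 491 calls beside one, 64.2% (59.7% to 68.4%) were members, against 9.46% of the 46198 calls elsewhere. Their edges follow in part from their place, since no read begins inside the interval and the ends on that side are cut off there. This limits what their footprints measure. Whether reads from inside the intervals could be aligned at all was not tested. The share of 64.2% and the footprints beside the intervals are therefore described for the aligned reads only. Without these calls, 47.2% of the shortest 10% of replicate 1 was found in that of replicate 2, against 9.57% of all such calls, and 47.3% against 9.58% in the other direction. At the same limits, the recurring share was thus somewhat lower without these calls and still far above the background.

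The strands were also unequal at many members. The strand with fewer 5′ ends in its window held a median of 32.7% of the ends at the members and 39.3% at the other calls. It held under 20% at 24.6% of the members (13.8% of the main-class members, 57.3% of the close-edge members and 65.7% of those beside read-free intervals), against 8.80% of the other calls. Of the 1443 calls at which it held under 10%, 36.5% were members, and of the 21435 calls at which it held at least 40%, 6.77% were. Among these 21435 evenly read calls, 46.7% of those chosen in replicate 1 were also in the shortest 10% of replicate 2, against 7.30% of all of them. With few ends on a strand, its median is uncertain, and the part of this in single footprints was not tested.

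Single members illustrate these kinds, and the main-class calls described were read more than most of their kind. Positions are given in the deposited coordinates, counted from 1, in the build that the labels name, sacCer2. Main-class calls were limited here to those with at least 300 reads and at most 70.5 bp in each library. The shortest, at 943 of chromosome 3 and 6559 of chromosome 7, both measured 54 bp. In replicates 1 and 2 alone, the former had 68 and 67 bp and the latter 55 and 68 bp. A footprint from both libraries added can thus be shorter than in either. The call at position 288440 of chromosome 7 was a main-class member with a footprint of 55 bp, and of 52 bp and 51 bp in replicates 1 and 2, from 424 and 336 reads. The fullest plus-strand position lay 47 bp to its left in replicate 1, with 52 reads, and 48 bp to its left in replicate 2, with 35 reads, and the fullest minus-strand position lay 24 bp to its right with 39 reads and 25 bp to its right with 29 reads. The fullest positions of the libraries thus lay within 1 bp of each other, and the nearest neighbouring call lay 250 bp away.

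The call at position 604233 of chromosome 14, also a main-class member, had a footprint of 56 bp in each library, with the left edge at 35 bp and the right edge at 21 bp in both. Its 866 and 553 reads were together 4.83 times the mean of its neighbouring calls, against a median of 0.723 times at the main-class members. Its fullest plus-strand position, with 84 and 51 reads, and its fullest minus-strand position, with 58 and 39 reads, lay at these edges. Plus-strand ends outnumbered minus-strand ends in its windows, with 560 against 181 in replicate 1 and 362 against 112 in replicate 2. From 92 to 150 bp to its right, almost no read began in replicate 1 and none in replicate 2. It was not counted as beside a read-free interval, the nearest of which lay 2187 bp away.

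Among the 8 shortest members with at least 300 reads in each library and a footprint of at most 70.5 bp in each, footprints ran from 44 to 45.5 bp, and 5 lay beside a read-free interval. The call at 523393 of chromosome 14 was one of these, measuring 45 bp from 872 reads of replicate 1 and 44 bp from 733 reads of replicate 2. Of its ends in the windows, 29 were on the plus strand and 770 on the minus strand in replicate 1, and 12 and 693 in replicate 2. Within 150 bp, reads began only from 6 bp to the left to 56 bp to the right of this call, and nearly all of them were on the minus strand. The call at 295168 of chromosome 8 was the only one of the 8 that lay more than 1 kb from such an interval, at 78950 bp. It was a close-edge member whose footprint was 46 and 49 bp in the respective libraries, its fullest plus-strand position lay 14 bp to the left, with 28 and 26 reads, and its fullest minus-strand position lay 45 bp to the right, with 53 and 40 reads. Plus-strand ends also lay to the right of this call, with 12 reads at 9 bp and 12 at 18 bp in replicate 1. The window leaves these out, so the left edge depends on where the window stops. In all, 435 members met the condition on reads and single-library footprints, of which 328 were main-class members, 58 close-edge members and 49 beside a read-free interval.

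**Figure D2:**
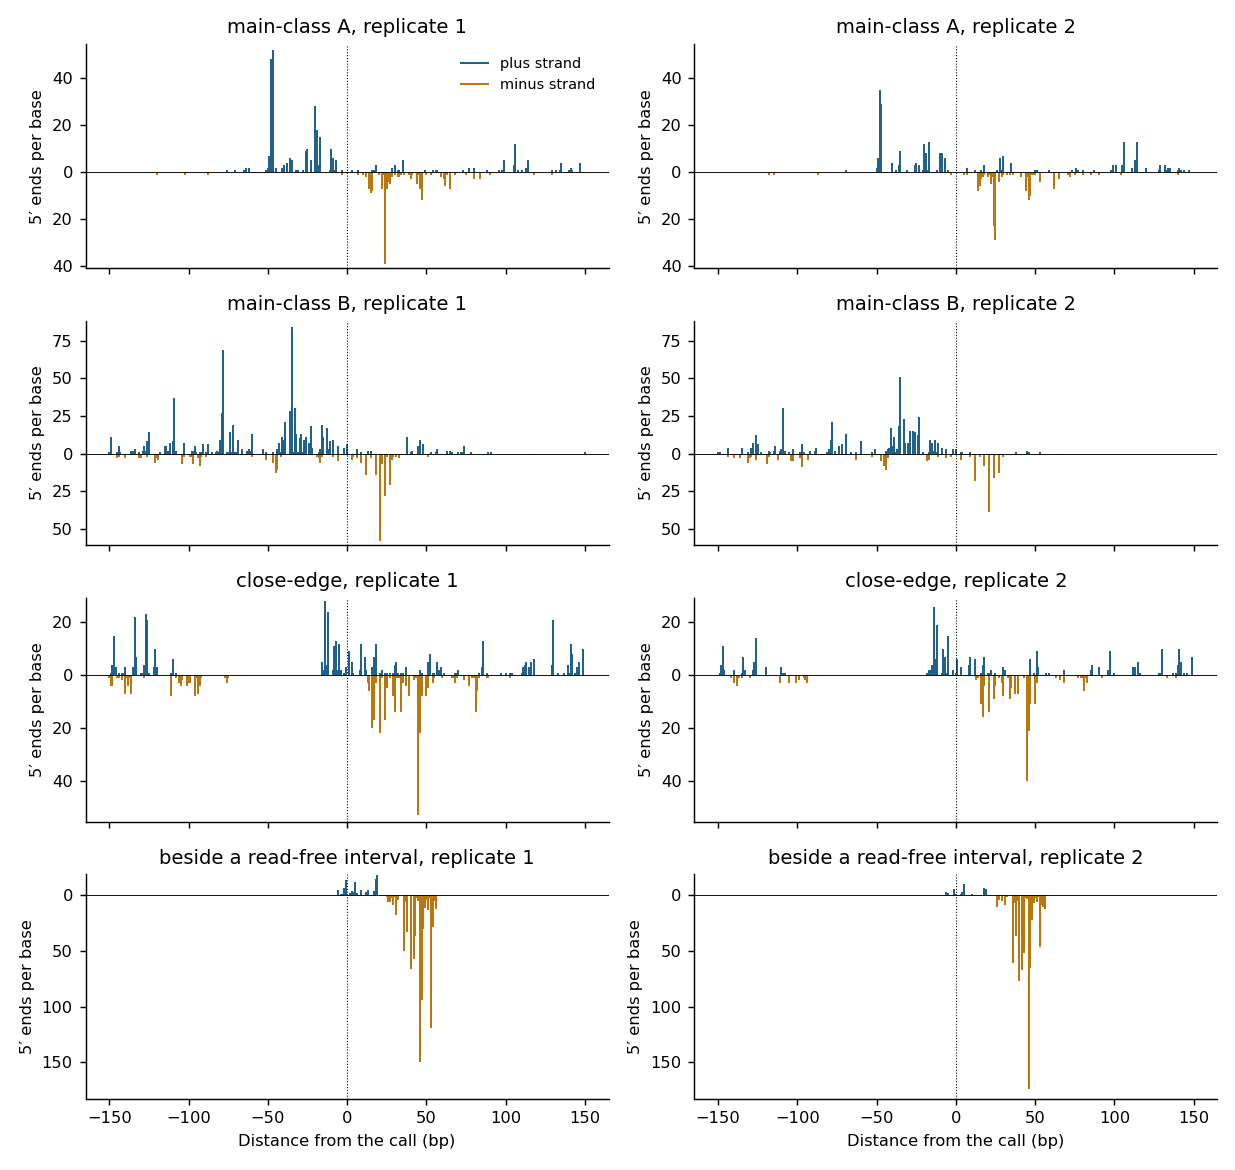
Number of 5′ ends at each base within 150 bp of 4 members, replicate 1 on the left and replicate 2 on the right, plus strand upward and minus strand downward. From top to bottom, main-class A is the call on chromosome 7 and main-class B that at 604233 of chromosome 14, followed by the close-edge call on chromosome 8 and the call beside a read-free interval at 523393 of chromosome 14. The fullest positions recur in both libraries, and the lowest pair of plots is empty outside the stretch from 6 bp left to 56 bp right of the call.

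Near the limit, the libraries could place a call on either side. Among the calls with the most reads just inside the limit, at 70.5 bp, that at 130308 of chromosome 13 measured 76 bp from the 844 reads of replicate 1 and 55 bp from the 344 reads of replicate 2. Its plus-strand window held only 7 and 3 ends, against 742 and 322 on the minus strand, so that its left edge rests on very few reads. The other, at 664749 of chromosome 4, had a footprint of 70 bp and 76.5 bp. Just outside the limit, at 71 bp, the call at 538634 of chromosome 13 had 72 and 66 bp and that at 271569 of chromosome 3 had 71 and 77 bp. The libraries thus differed by more than the step across the limit. The 4 members with the most reads that met the condition on reads and footprints all lay beside a read-free interval. They were the calls at 460541 and 11237 of chromosome 12, with 36074 and 24748 reads, at 6661 of chromosome 14, with 10679 reads, and at 745392 of chromosome 10, with 9388 reads. The libraries differed most among these at 11237, with 6964 reads in replicate 1 and 17784 in replicate 2, and its footprint was 46 and 45.5 bp.

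Around the main-class members, 5′ ends lay nearer the call, as the rule requires. With the strands folded together, the ends of the main-class members were densest at 35 and 33 bp from the call in the respective libraries, against 45 and 43 bp at the other calls. The height there was 1.83 ends per base in replicate 1 and 1.83 in replicate 2, against 2.58 and 2.40. The ends of the next nucleosome on the outer side were densest at 219 and 213 bp, against 215 and 211 bp at the other calls. On the inner side, the ends of the next nucleosome on the same strand were densest at -127 and -133 bp, against -122 and -126 bp. Both neighbouring peaks thus lay somewhat farther from the main-class members than from the other calls in each library. The members beside read-free intervals had only 0.315 and 0.272 ends per base at the highest point of the outer side, so no neighbouring peak of the usual height was seen there.

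**Figure D3:**
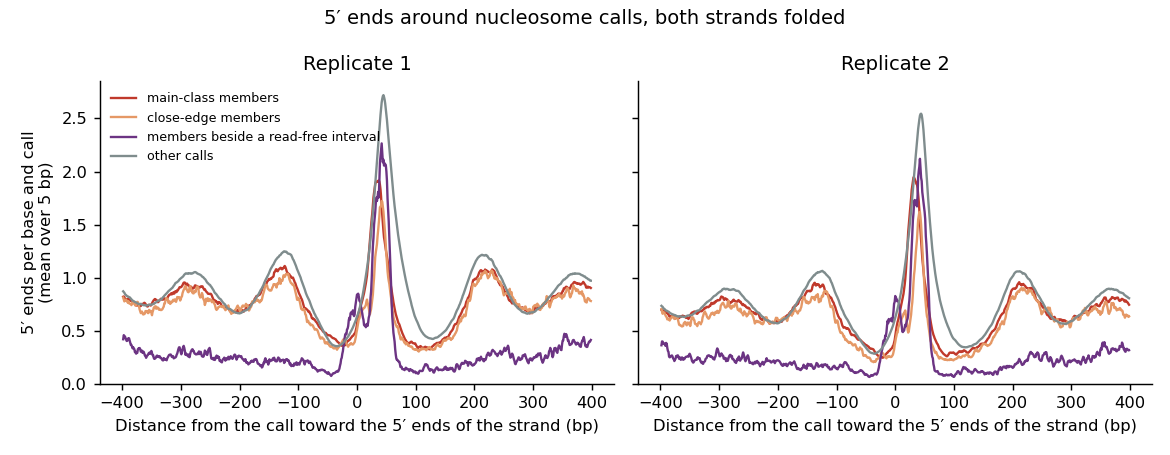
Mean number of 5′ ends per base and call (mean over 5 bp, at most 20 reads per position) against the distance from the call in bp, for replicate 1 (left) and replicate 2 (right), with the plus strand mirrored so that positive distances lie on the side of the 5′ ends. Red, main-class members; orange, close-edge members; purple, members beside a read-free interval; grey, other calls. The main peak of the main-class members lies at 35 and 33 bp, inside that of the other calls at 45 and 43 bp, while the outer peaks lie at 219 and 213 bp, against 215 and 211 bp.

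The shift was also seen in the share of ends by distance. Within 90 bp of the call, 23.6% ± 2.44 (SD, n = 2 libraries) of the ends of the main-class members lay from 15 to 29 bp away, against 15.3% ± 1.68 at the other calls. From 30 to 44 bp the shares were 31.0% ± 2.12 and 25.8% ± 1.90. Beyond this the order turned, with 17.6% ± 1.51 against 25.1% ± 0.350 from 45 to 59 bp, 9.36% ± 1.75 against 14.9% ± 2.17 from 60 to 74 bp, and 6.43% ± 1.23 against 9.90% ± 1.99 from 75 to 90 bp. Over all members and both libraries added, 35.2% of the ends lay from 45 to 90 bp away, against 50.0% at the other calls. The differences in each class were larger than the spread between the libraries, but the rule used these ends, and their direction follows from it.

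The distances between all pairs of a plus-strand and a minus-strand 5′ end at a call describe the same ends in another way. An excess of short pairs at the members follows from the rule, and the values are a description. At the main-class members, more pairs lay 63 bp apart than at any other distance, in replicate 1 and in replicate 2 alike, whereas at the other calls this was 93 bp and 83 bp. Pairs at most 75 bp apart made up 54.2% and 61.3% of the pairs, against 30.6% and 37.2%, and pairs at least 110 bp apart made up 13.2% and 10.3%, against 29.5% and 23.2%. The curve of the other calls had small maxima that began at 51, 63, 72, 83 and 93 bp in both libraries and of which the last lay at 125 bp for replicate 1 and at 115 bp for the other library, with a mean step of 10.6 ± 1.13 bp in replicate 1 and 10.7 ± 1.21 bp in replicate 2 (SD over the steps). A turn of the DNA helix is of this size. The main-class members had maxima at 51, 63, 82, 92, 104 and 114 bp in replicate 1, and each of these lay within 1 bp of a maximum of the other calls. In replicate 2 they began at 51, 63, 84 and 93 bp and ended at 114 bp, likewise within 1 bp. These maxima were very unequal. Their height above the smoothed curve was 0.119 and 0.173 at 63 bp in the respective libraries, but 0.00377 and 0.00543 at 114 bp. At the other calls it was 0.0213 and 0.0357 at 63 bp and 0.0162 and 0.00871 at 115 bp. A regular repeat was not shown for the main-class members. No maximum near 72 bp was found in either library, and this distance lies just above the limit that chose the members. The mean step of the main-class members was 12.6 ± 3.71 bp in replicate 1 and 12.6 ± 4.93 bp in replicate 2, more uneven than that of the other calls. It includes the long step left by the missing maximum, from 63 to 82 bp in replicate 1 and from 63 to 84 bp in replicate 2.

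**Figure D4:**
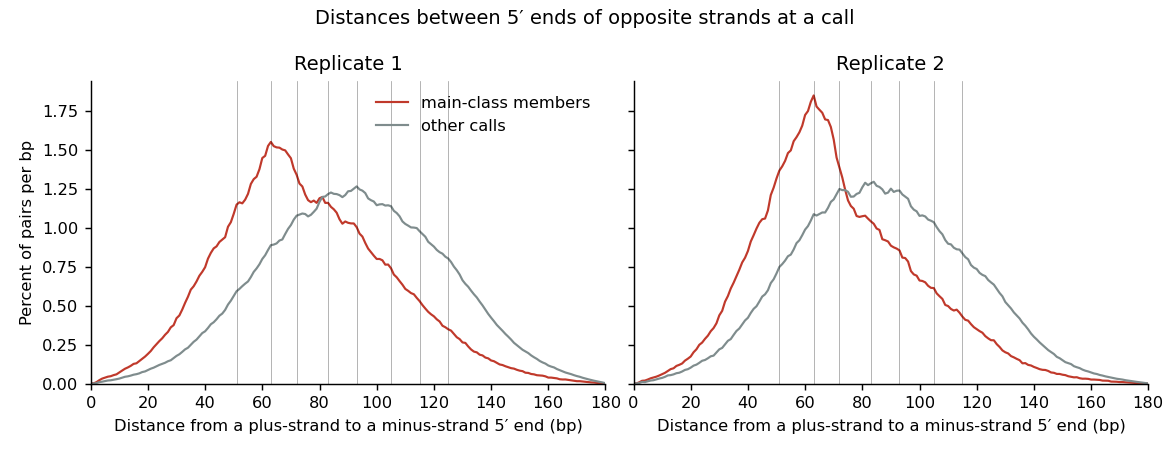
Percentage of pairs of a plus-strand and a minus-strand 5′ end per bp, against the distance between them in bp, for replicate 1 (left) and replicate 2 (right), with each call weighted equally. Red, main-class members; grey, other calls; the thin vertical lines mark the small maxima of the other calls in the same library. The red curve peaks at 63 bp in both libraries and the grey curve at 93 and 83 bp.

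The members were also read less than the other calls, which the rule did not use beyond its minimum of 100 reads. A member held a median of 378 reads (interquartile range 241 to 568), against 609 (388 to 907) at the other calls. In replicate 1 the medians were 201 and 324 and in replicate 2 they were 171 and 281, a ratio of 0.620 and 0.609 (0.614 ± 0.00836, SD, n = 2 libraries). The median was lower at the members on 16 of 16 chromosomes. It was 401 reads at the main-class members, 295.5 at the close-edge members and 323 beside read-free intervals. Set against the mean of the neighbouring calls, the members held 0.716 times their reads and the other calls 1.02 times. This was 0.723 for the main-class and 0.599 for the close-edge members but 1.17 beside read-free intervals, where the neighbours were read less as well.

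All calls were put into 10 classes of about equal size by their reads. From the class with the fewest reads to that with the most, the share of members fell at every step, from 22.5% to 1.65%, and without calls beside read-free intervals from 20.9% to 1.15%. A footprint from fewer ends has a larger counting error, so the recurrence between the libraries was read class by class. In the class with the fewest reads, 54.1% of the calls chosen in replicate 1 recurred in the shortest 10% of replicate 2, against 22% of all calls there, and in the class with the most reads 62.4% recurred, against 2.43%. In the classes between, the recurring share lay from 42% to 52.7%. The share that recurred was thus above the background in each class, and the background itself was highest where reads were fewest.

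The ends of the members were gathered on fewer positions. Counting each strand apart, reads began at a median of 66 positions at a member and at 86 at the other calls. The fullest of these held 11% of the ends at the members and 9.05% at the other calls. The interquartile range of the ends on a side was 26 bp wide at the members, 27 bp at the main-class members and 31 bp at the other calls. The members have fewer reads and their ends lie in a smaller space, and these cannot be told apart from a sharper placement here. The position of a member was called within 20 bp in replicate 1 alone in 87.0% of cases and in replicate 2 alone in 89.6%, against 92.4% and 91.2% for the other calls.

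The spacing of the members differed little from that of the other calls. The median distance to the nearest call was 183 bp for the members (interquartile range 162 to 218 bp) and 178 bp for the other calls (160 to 210 bp), with the larger median at the members on 16 of 16 chromosomes (178 to 189 bp, against 175 to 179 bp). The median was 181 bp at the main-class members and 267 bp beside read-free intervals. Of the calls on either side, the farther one lay at 276 bp and 274 bp. The mean footprint of the calls on both sides, taken among calls with a footprint, had a median of 86 bp at the members and 87.5 bp at the other calls. The median was lower at the members on 16 of 16 chromosomes. By kind, the median of this mean was 87 bp at the main-class members, close to the other calls, and 85.5 bp at the close-edge members. Beside read-free intervals it was short, at 68 bp.

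Members lay next to another member more often than other calls did. Of the members, 26.5% had a member as an adjacent call, against 17.8% of the other calls and 18.6% of all calls. The share was higher at the members than at the other calls on 16 of 16 chromosomes (from 19.3% to 38.6%, against 14.8% to 19.1%). It was 21.1% for the main-class members, not far above the 18.6% of all calls. The close-edge members had 30.6% and those beside read-free intervals 77.1%. Calls lay at least 147 bp apart and the windows of a strand reached 90 bp, so no 5′ end entered the footprints of more than 1 call. Adjacent calls and runs were taken among the calls with a footprint, so calls without one can lie between, unlike in the distances to the nearest call. Most members stood alone, with 3446 single members, 406 runs of 2 and 73 runs of 3. Of the 39 runs of 4 or more, 33 held a member beside a read-free interval. The longest was a run of 13 members on chromosome 8 from 531161 to 553387, of which 10 lay beside such intervals. The 6 other runs included 5 main-class members in a row on chromosome 15 from 181413 to 182523, with a median footprint of 68 bp and a median of 488 reads.

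Along the chromosomes, the share of members varied little except near the ends. Between 8.78% (chromosome 3) and 11.1% (chromosome 1) of the calls were members, with a mean of 10.0% ± 0.647 (SD, n = 16 chromosomes). Within 5 kb of the outermost base with a read, 29.4% of 327 calls were members, from 5 to 10 kb 24.9% of 409, and from 10 to 20 kb 16% of 1014. Farther inward the share lay between 9.33% and 10.1%. Without calls beside read-free intervals the shares in the 3 outermost classes were 21.6%, 19.4% and 12.7%. The recurrence between libraries was highest there as well, with 75.3% of the calls chosen in replicate 1 within 5 kb of an end also chosen in replicate 2, against 27.2% of all calls there, and 47.6% against 9.76% more than 100 kb from an end. The outer 10 kb held 4.22% of the members and 1.28% of the other calls. The part of the chromosome ends in the results on reads and neighbours was not tested.

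**Figure D5:**
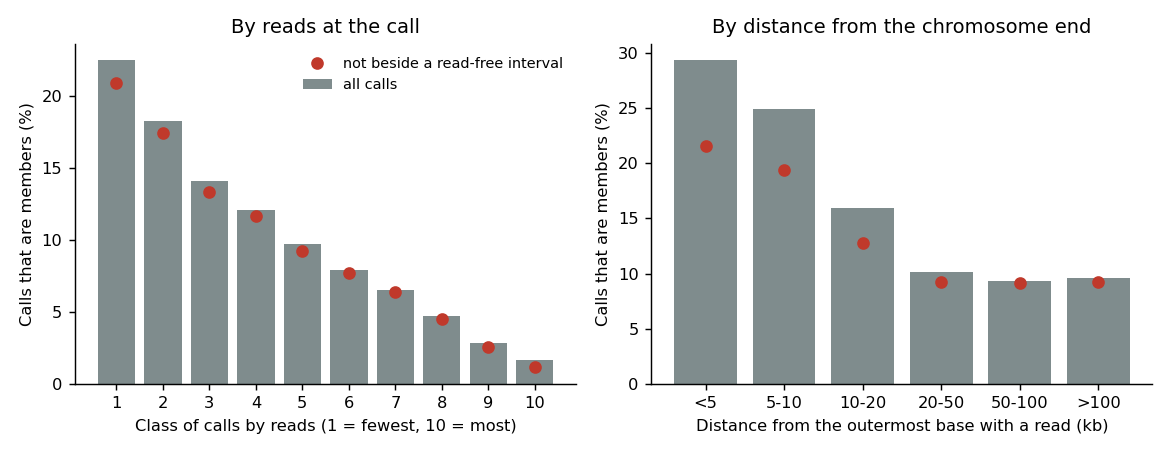
Percentage of calls that were members, in 10 classes of calls ordered by reads (left, from fewest to most) and by distance in kb from the outermost base with a read on the chromosome (right). Bars, all calls; red points, calls not beside a read-free interval. The share falls from 22.5% to 1.65% over the classes by reads, and from 29.4% in the outer 5 kb to about the mean of all calls beyond 20 kb.

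The members depended on where the calls were placed. Each 5′ end had been moved to the midpoint between the strands before calling, by 47 bp for replicate 1 and by 42 bp for the other library. When both libraries were moved by 45 bp, 95% of the members were members again within 20 bp, but when both were moved by 73 bp, the centre of a full nucleosome, 0.363% were, and the median footprint of the new members was 75.5 bp. With at most 1 read counted per position and strand, 58.3% of the members were kept. With the reads of replicate 2 alone 46.3% were kept, and with those of replicate 1 alone 53.3%. A footprint is thus a property of a call together with its placement, and the set of 4687 holds for the setting given here.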

How the data were processed

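MNase-seq reads of 2 libraries from 1 condition were used. The authors deposited the position and strand of every aligned read, 1 line per read, with no normalization and every read lengthened to 150 bp. The labels name the build sacCer2, and the aligner, its settings and the treatment of reads with several positions are not given in the sources used here.

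The 5′ end of each read was moved toward its 3′ end by 47 bp (replicate 1) or 42 bp (replicate 2), both libraries were added and smoothed with a Gaussian (SD 20 bp), and local maxima were accepted in order of height, each barring lower ones within 147 bp. Reads at a call were those with their moved end within 73 bp. Footprints in 1 library were measured at the calls from both. The limit of 20 reads per position and strand was applied to the sum of the libraries, or to the single library where 1 was measured alone. Calling and footprints were tried on a simulated chromosome with nearly regular spacing, balanced strands and fixed footprints. The data are less regular, so the simulation checks the code and not the accuracy of footprints in the data. The work was done in Python 3.11.15 with matplotlib 3.10.9, numba 0.67.0, pandas 2.3.3, scipy 1.17.1 and numpy 2.4.6.

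The strands were checked first. The last minus-strand 5′ end of a chromosome lay a median of 31 bp beyond the last plus-strand 5′ end in both libraries, and from 0 to 36 bp beyond it on 14 of 16 chromosomes in replicate 1 and on 13 in replicate 2.

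The members, lists and limits were chosen with earlier results of these data known. Named calls were the 8 shortest and the 4 fullest members with at least 300 reads in each library and a footprint at or under the limit in each, and 2 calls on each side of the limit. The division into kinds and the main-class examples were added after values had been seen. No genome or annotation of this build was used here, so base composition, motifs, gene lists and the place of members in genes were not analysed here. Open chromatin loci were not analysed here. Alternatives changed the limit on reads per position, the windows, smoothing, exclusion zone, move, minimum of reads and percentage of calls taken. Amplified reads are not separate molecules, so the exact binomial intervals (95%) cover counting error only.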

Additional observations from a re-analysis of the deposited data

Results flagged for a closer look

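On the mitochondrial chromosome, which the calls leave out, lay 16439 reads in replicate 1 and 27301 in replicate 2, where a count of 0 would allow up to 3 reads.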

How the results depend on the processing

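The median footprint was 65 bp, the limit 70.5 bp and the number of members 4687, and the ratio of reads at members to other calls, from both libraries added, was 0.621. In each alternative tried this ratio stayed under 1. The recurring share, 49.8% of the calls chosen in replicate 1, cannot be had when a library is left out, and lay from 40.2% to 55.9% in the other alternatives. With at most 1 read per position and strand, the limit was 75 bp, the median footprint 70.5 bp, the recurring share 48.0%, the ratio of reads 0.570 and the difference in the share of ends from 45 to 90 bp (members minus other calls, -14.8 percentage points) -10.9. With no limit on reads per position these were, for the recurring share, 47.2%, for the ratio of reads 0.677 and for the ends -17.9. Windows of 75 bp gave a limit of 66 bp, a recurring share of 50.5%, a ratio of 0.646 and -12.0 for the ends, and wider windows a recurring share of 48.7%. A smoothing SD of 10 bp gave a recurring share of 49.3%, a neighbour distance of 174 bp, 24.6% of members next to a member and -12.0 for the ends, and one of 30 bp gave 48.3%, 27.6% next to a member and -16.2. An exclusion zone of 120 bp gave a recurring share of 47.8% and a neighbour distance of 155 bp, as it allows closer calls.

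A move of 73 bp gave a limit of 79.5 bp, a median footprint of 75.5 bp, a recurring share of 40.2%, a ratio of 0.794, 18.9% next to a member and -2.88 for the ends. Minimums of 200 and 500 reads gave recurring shares of 50.8% and 48.0%, ratios of 0.684 and 0.835 and shares next to a member of 25% and 22.3%, and the higher one left 2873 members with a median footprint of 70.0 bp and a neighbour distance of 181 bp. At least 20 reads on each side gave a recurring share of 46.3%, a ratio of 0.667 and 23.6% next to a member. The shortest 5% and 20% were 2212 and 9379 members, with limits of 64.5 and 76.5 bp, median footprints of 59.5 and 71 bp, recurring shares of 47.4% and 55.9%, ratios of 0.544 and 0.701, neighbour distances of 185 and 180.0 bp, and 22.4% and 39.9% next to a member, which a larger set raises by construction. Without calls beside read-free intervals, an alternative added after seeing the data, the recurring share was 47.6%, the neighbour distance 181 bp and 22.4% were next to a member. The share of all calls next to a member was not computed for the alternatives. The limit of 20 reads applied in each library before adding, also added, gave a ratio of 0.643. Leaving out 1 library gave ratios from 0.695 to 0.708, neighbour distances from 180.0 to 182 bp, shares next to a member from 22.8% to 24.2% and ends from -16.2 to -14.7. Apart from the 2 effects named, the cause was not tested.

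The part of depth in membership was not tested beyond the classes by reads, and a call near 70.5 bp can fall on either side. The planned results on genes and base composition were not run, since no genome of the build was used here. No paired analysis was possible because there is only 1 group.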
